A study of Mus musculus with 9 samples.

Results

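The core autophagy genes of mouse liver were examined as 1 gene group across 9 mRNA libraries. The group holds every protein-coding gene of the deposited table whose symbol is Atg followed by a digit (19 genes), and 20 further genes of the same machinery, named by symbol: Ulk1, Ulk2, Becn1, Rb1cc1, Pik3c3, Pik3r4, Uvrag, Ambra1, Sqstm1, Nbr1, Optn, Map1lc3a, Map1lc3b, Gabarap, Gabarapl1, Gabarapl2, Wipi1, Wipi2, Tfeb and Tfe3. That made 39 genes of 34745 in the table, 22007 of them protein-coding. The rule uses names and no measured value, but the members were chosen with earlier results of these data known. Of the 39, 38 passed the filter on low counts and were tested; Atg9b did not. The gene Atg4a-ps carries a pseudogene name although its biotype in the table is protein-coding, and it was kept because it meets the rule.

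The libraries came from livers of male C57BL/6 mice aged 6 to 8 weeks, with 3 libraries in each of 3 groups. The first group is labelled as control, with no agent named. The second group received D-gal/LPS, a combination used to induce acute liver injury in mice, the usual letters for D-galactosamine with lipopolysaccharide. The third group received WZB as well as D-gal/LPS; the labels do not expand WZB, and the series' design text speaks of pretreatment with GLUT1 inhibitors. No genetic change is named for any group, and the sources used here give no dose, time or vehicle. No group received WZB alone, so the WZB comparison holds only in injured liver. The labels do not tie libraries to separate animals, and p-values therefore measure only the spread between these libraries, which may be technical.

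Autophagy encloses part of the cytoplasm in a double membrane, the autophagosome, and delivers it to the lysosome. A kinase complex around ULK1 starts the process, a lipid kinase complex around PIK3C3 and Beclin 1 marks the forming membrane, and 2 ubiquitin-like conjugation reactions attach ATG8-family proteins such as LC3 and GABARAP to it. Cargo receptors such as p62, the product of Sqstm1, bind both the cargo and the ATG8 proteins and are degraded with the cargo. In the liver autophagy supplies nutrients in fasting and clears damaged mitochondria, lipid droplets and protein aggregates. Transcript levels do not measure this flux: p62 and lipidated LC3 are usually read as protein.

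The libraries held between 15072509 and 18106895 counts. Autophagy genes took 0.203% to 0.209% of the counts in control libraries, 0.153% to 0.164% after D-gal/LPS and 0.157% to 0.163% after WZB with D-gal/LPS. Markers of other cell types moved with the groups. After D-gal/LPS all 12 monocyte and macrophage markers rose, and their summed level was 52.3 to 60.8 CPM (counts scaled to library size with TMM factors) in controls, 447 to 457 after D-gal/LPS and 263 to 308 with WZB added. Of 10 tested neutrophil markers 9 rose, with sums of 221 to 249.6, 552 to 619 and 350.6 to 394 CPM in that order, mostly Lcn2 in controls, where Mpo and Camp were at 0. Kupffer cell markers rose in 7 of 8 cases (295 to 335, 599.97 to 681 and 490.3 to 535 CPM), endothelial markers in 6 of 8 (97.9 to 109, 465 to 493 and 241 to 291), and stellate cell markers in 8 of 8 (104 to 111, 986 to 1054 and 545 to 618). Markers of T, NK and B cells rose in 5 of 9 cases, from 4.12 to 5.97 up to 44.7 to 51.2 and 19.97 to 23.6 CPM, with Ncr1 at 0 in controls. All 7 tested red blood cell transcripts rose, with sums of 109.9 to 139.8, 3586 to 4475 and 423 to 714 CPM, and Slc4a1 was at 0 in controls. Of 14 hepatocyte markers 4 rose and 3 fell after D-gal/LPS and 9 rose with WZB; their sums of 101228 to 103265, 123565 to 126748 and 164117 to 171765 CPM fit the liver label. The part of these shifts in the results below was not tested. In bulk tissue, fewer cells of a type and less RNA per cell cannot be told apart.

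In livers given D-gal/LPS, 24 of the 38 tested autophagy genes fell against control and 4 rose, while 10 did not pass the test. The genes that rose were Gabarap, Gabarapl1 and Gabarapl2, which encode ATG8-family proteins, and the kinase gene Ulk2. The genes that fell reached from the initiation complex (Atg101, Atg13, Ulk1, Rb1cc1) over the lipid kinase complex (Atg14, Pik3r4, Ambra1, Pik3c3, Uvrag) to all 3 cargo receptors (Sqstm1, Nbr1, Optn). A call is an adjusted p under 0.05 in the quasi-likelihood test of edgeR, adjusted by Benjamini and Hochberg's method across the 13583 genes tested. By that call 73.7% of the autophagy genes changed, beside 58.4% of all genes; 63.2% fell beside 29.3%, and 10.5% rose beside 29.1%. The median log2 fold change was -0.48 over the autophagy genes and -0.029 over all genes. Of the 38, 8 or 21.1% were called with a change of at least 2-fold, beside 30.8% of all genes, and all 8 fell. The ranges of the 3 control and 3 D-gal/LPS libraries did not overlap for 29 of 38 autophagy genes, 76.3% beside 65.5% of all genes. Of the 28 calls, 23 held in all 20 alternative settings; those of Uvrag, Optn, Atg12, Atg3 and Atg2b did not.

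With WZB added to D-gal/LPS, 7 autophagy genes were higher and 3 lower than after D-gal/LPS alone, while 28 did not pass the test. Those that rose were Gabarapl1, Gabarapl2 and Map1lc3a of the ATG8 family, the conjugation enzyme genes Atg3 and Atg5, the protease gene Atg4a and the kinase gene Ulk2. Sqstm1, Ambra1 and Atg4d fell. The share called, 26.3%, lies near the 28.5% of all genes, so the number of calls says nothing particular about autophagy genes; 18.4% rose beside 13.8% of all genes, and 7.89% fell beside 14.7%. None of the 10 changed 2-fold, beside 5.81% of all genes, and for 19 of 38 autophagy genes, 50.0% beside 45.3%, the ranges of both groups were apart. This split depended on the scaling of the libraries. With libraries scaled by their total count, which moves the median of all genes by -0.20 on the log2 scale, 1 autophagy gene rose and 12 fell, and over all genes 850 rose and 3290 fell in place of 1873 and 2001. The median over the autophagy genes was 0.13 with TMM and -0.069 with total-count scaling. Gabarapl1 is the gene that still rose, and Sqstm1, Ambra1 and Atg4d were among the 12 that fell. Single libraries also moved the counts: 6 genes were called without WZB + D-gal/LPS replicate 2, 4 rose without that library or without D-gal/LPS replicate 3, and 6 fell without D-gal/LPS replicate 2. Leaving out D-gal/LPS replicate 2 also moved the median of all genes, by -0.099 on the log2 scale. It moved that median by -0.071 for WZB + D-gal/LPS against control, where the library is in neither group. The calls of Gabarapl1, Sqstm1 and Ambra1 held in all 20 alternative settings. The log2 fold changes below are relative to the TMM scaling. Both comparisons use the same D-gal/LPS libraries, so a high or low value there moves the fold changes in opposite directions, and the values are given side by side.

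Set against control, the WZB with D-gal/LPS livers had 9 autophagy genes higher and 19 lower, 73.7% beside 60.6% of all genes; 23.7% were higher beside 32.6%, and 50.0% lower beside 28.0%. The 9 were Gabarap, Gabarapl1, Gabarapl2, Map1lc3a, Ulk2, Becn1, Atg4a, Atg4a-ps and Atg10. The median log2 fold change was -0.32 over the autophagy genes. The calls of Map1lc3a, Becn1 and Atg10 among the 9 were lost with total-count scaling, the first 2 also with the FPKM settings, that of Atg10 also without control replicate 3 (edgeR adjusted p = 0.064) and that of Map1lc3a also without WZB + D-gal/LPS replicate 2 (edgeR adjusted p = 0.0535). Among the 19, Optn was lost without D-gal/LPS replicate 3, WZB + D-gal/LPS replicate 1 or 3 or control replicate 1 or 3 (edgeR adjusted p = 0.0502 to 0.157), and Atg2b when any 1 of 7 libraries was left out (edgeR adjusted p = 0.0555 to 0.209). The map of all tested members by library shows both patterns.

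**Figure D1:**
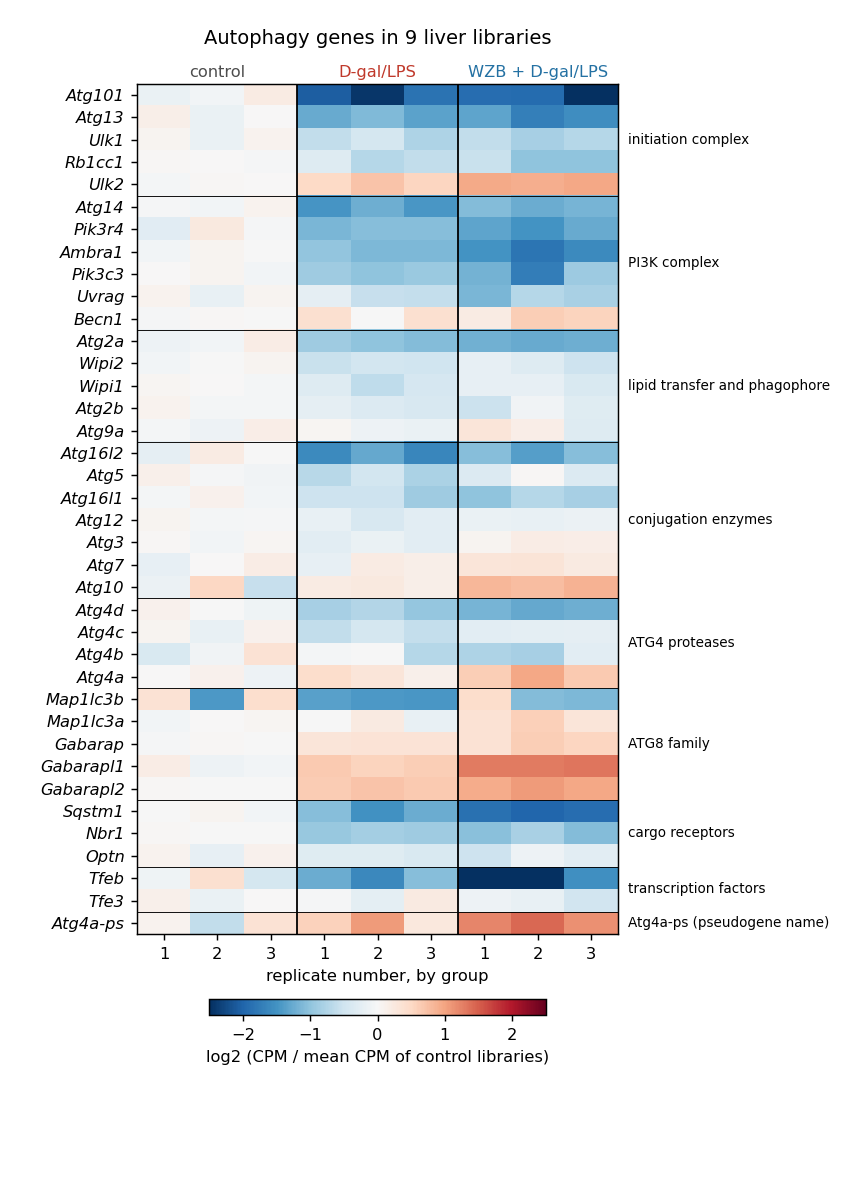
Each row is 1 tested autophagy gene and each column 1 library; the colour is log2 of CPM over the mean CPM of the 3 control libraries, with colours saturating at the ends of the scale, and rows are grouped by role. The ATG8 genes Gabarap, Gabarapl1 and Gabarapl2 and the kinase gene Ulk2 are above control in all 6 libraries given D-gal/LPS, while most other rows are below it.

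Levels between genes were compared on the deposited FPKM scale, which corrects for gene length. In control liver the ATG8 genes Gabarap and Gabarapl1 led, at 63.9 ± 2.802 and 56.9 ± 6.05 FPKM (SD, n = 3). Their ranges overlapped, so their order is not resolved. Sqstm1 followed at 46.8 ± 3.12 FPKM, below every Gabarapl1 library, and Atg3 stood at 23.1 ± 0.6096, below every Sqstm1 library. Atg5, Optn, Atg101 and Nbr1 lay between 15.8 and 17.4 FPKM, and neighbours in that order overlapped. In all, 11 of 39 genes exceeded 10 FPKM in control, and 11 lay under 2 FPKM. The lowest were Atg9b at 0.1499 ± 0.0811, Atg4a-ps at 0.844 ± 0.257 and Tfeb at 0.9199 ± 0.295 FPKM.

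The initiation complex held the largest fall of any tested member after D-gal/LPS. Atg101 (chr15:101284301-101290934 on GRCm38) encodes a partner that stabilises ATG13 in the ULK1 complex. Its libraries read 16.2, 17.5 and 21 CPM in the 3 controls, 4.39, 3.36 and 5.07 in the D-gal/LPS libraries, and 4.88, 4.82 and 3.19 in those with WZB. The 6 libraries given D-gal/LPS, with or without WZB, overlapped each other and lay far below the controls. The log2 fold change after D-gal/LPS was -2.09 ± 0.20 with edgeR adjusted p = 1.25e-06, and the WZB difference was -0.0024 ± 0.21 with edgeR adjusted p = 0.994. Atg13 (chr2:91674618-91710576), which links the kinase to the rest of the complex, read 50.1, 40.2 and 45.3 CPM in the 3 controls, 18.9, 20.96 and 18 in the D-gal/LPS libraries, and 18.1, 13.8 and 15.4 in those with WZB. It too was lower in all 6 than in any control. Its log2 fold change after D-gal/LPS was -1.23 ± 0.13 with edgeR adjusted p = 2.36e-06, and the WZB difference of -0.29 ± 0.13 with edgeR adjusted p = 0.114 did not pass, but the gene was called lower with total-count scaling, with the filter of 5 CPM in 3 libraries and with both FPKM settings.

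The 2 kinase genes of the complex went opposite ways. Ulk1 (chr5:110784488-110810097) read 95.3, 81.3 and 96.4 CPM in the 3 controls, 59.7, 67.5 and 53.3 in the D-gal/LPS libraries, and 59.7, 51.2 and 55.4 in those with WZB. Ulk2 (chr11:61775649-61855073), its close relative with overlapping function, read 40.1, 42.3 and 41.8 CPM in the 3 controls, 58.4, 67.9 and 60.2 in the D-gal/LPS libraries, and 80.3, 78.1 and 80.8 in those with WZB. For Ulk1 the D-gal/LPS libraries lay below the controls and overlapped those with WZB; for Ulk2 the 3 groups did not overlap and stood in the order control, D-gal/LPS, WZB with D-gal/LPS. After D-gal/LPS Ulk1 fell (log2 fold change -0.60 ± 0.11, edgeR adjusted p = 0.000313) and Ulk2 rose (log2 fold change 0.59 ± 0.086, edgeR adjusted p = 5.95e-05). With WZB Ulk2 rose further (log2 fold change 0.36 ± 0.085, edgeR adjusted p = 0.00685), but that call did not survive total-count scaling or the FPKM settings. For Ulk1 the WZB difference was -0.12 ± 0.11 with edgeR adjusted p = 0.454, and it was called lower with total-count scaling. Rb1cc1, which encodes the scaffold FIP200, fell after D-gal/LPS (log2 fold change -0.54 ± 0.15, edgeR adjusted p = 0.00675) and did not pass with WZB (log2 fold change -0.30 ± 0.15, edgeR adjusted p = 0.158). With total-count scaling 3 of the 5 genes of the initiation complex were called lower with WZB: Atg13, Ulk1 and Rb1cc1.

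Of the 6 tested genes of the lipid kinase complex, 5 fell after D-gal/LPS and none rose, beside 29.3% and 29.1% of all genes. Atg14 (chr14:47540894-47568434), the subunit that directs the complex to forming autophagosomes, read 18.9, 18.5 and 20.6 CPM in the 3 controls, 6.93, 8.24 and 7.08 in the D-gal/LPS libraries, and 9.06, 8.14 and 8.601 in those with WZB. The injured groups overlapped each other and lay below control. Its log2 fold change was -1.38 ± 0.13 with edgeR adjusted p = 1.18e-06 after D-gal/LPS and 0.21 ± 0.14 with edgeR adjusted p = 0.273 for WZB. Pik3r4 (chr9:105642978-105687657), the regulatory subunit VPS15, read 13.7, 19.8 and 16.4 CPM in the 3 controls, 7.57, 7.91 and 7.91 in the D-gal/LPS libraries, and 6.65, 5.88 and 6.94 in those with WZB. All 6 injured libraries were lower than any control, and the log2 fold change was -1.09 ± 0.16 with edgeR adjusted p = 5.1e-05. The WZB difference in Pik3r4 was -0.26 ± 0.16 with edgeR adjusted p = 0.264.

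Ambra1 (chr2:91730134-91918849), a regulator that binds Beclin 1 and acts as a ubiquitin ligase adaptor, was the only member of this complex called in both comparisons with TMM. With total-count scaling or DESeq2 size factors, 2 of the 6 genes were called lower with WZB. Its libraries read 21.8, 23.9 and 22.6 CPM in the 3 controls, 11.6, 10.5 and 10.5 in the D-gal/LPS libraries, and 8.07, 6.41 and 7.56 in those with WZB. The 3 groups stood apart in falling order. The log2 fold changes were -1.07 ± 0.13 with edgeR adjusted p = 9.16e-06 after D-gal/LPS and -0.56 ± 0.13 with edgeR adjusted p = 0.00697 with WZB. The catalytic subunit gene Pik3c3 fell after D-gal/LPS (log2 fold change -0.94 ± 0.18, edgeR adjusted p = 0.000531). Uvrag, the subunit of the endosomal form of the complex, also fell (log2 fold change -0.46 ± 0.15, edgeR adjusted p = 0.0179), a call lost without D-gal/LPS replicate 2 or 3 or control replicate 1 or 3 (edgeR adjusted p = 0.055 to 0.0811). The WZB difference in Uvrag was -0.41 ± 0.15 with edgeR adjusted p = 0.062 and did not pass. Its libraries with WZB lay below those with D-gal/LPS alone, and such ranges were apart for 45.3% of all genes. Becn1, which encodes Beclin 1 itself, was 39.9 ± 0.809, 48.2 ± 7.34 and 55.3 ± 8.32 CPM (SD, n = 3) in the same group order. It passed in neither of these comparisons and was higher with WZB and D-gal/LPS than in control, at 0.47 ± 0.13 with edgeR adjusted p = 0.00648. Total-count scaling and the FPKM settings ended that call.

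Genes for membrane supply and growth of the phagophore, the open precursor of the autophagosome, fell in 4 of 5 tested cases after D-gal/LPS, and none passed with WZB. Over all genes 29.3% fell after D-gal/LPS and 28.5% passed with WZB. The WZB log2 fold changes of the 5 genes lay between -0.24 and 0.19 with TMM, and 1 was called lower with total-count scaling. Atg2a and Atg2b encode lipid transfer proteins, and Wipi1 and Wipi2 encode proteins that bind the lipid made by PIK3C3. Their log2 fold changes by edgeR were -0.99 ± 0.10 (adjusted p = 2.51e-06) for Atg2a, -0.50 ± 0.095 (adjusted p = 0.000489) for Wipi2, -0.45 ± 0.12 (adjusted p = 0.00678) for Wipi1 and -0.31 ± 0.12 (adjusted p = 0.0408) for Atg2b. The call of Atg2b was lost with DESeq2, its size factors, the filter of 5 CPM and no filter, and without D-gal/LPS replicate 2 or 3, WZB + D-gal/LPS replicate 3 or control replicate 1, 2 or 3 (edgeR adjusted p = 0.0513 to 0.13). The lipid scramblase gene Atg9a did not pass, at -0.080 ± 0.14 with edgeR adjusted p = 0.661. It overlaps Ankzf1, which had 3140 counts beside 5435 for Atg9a and fell after D-gal/LPS (log2 fold change -1.39, edgeR adjusted p = 1.09e-06). Some reads of Atg9a may come from Ankzf1. Atg9b, the relative of Atg9a, had 14, 15 and 5 counts in controls, 0 in each D-gal/LPS library, and 1, 1 and 2 with WZB. With 3 counts placed over the whole D-gal/LPS group, the pooled control level was 10.8-fold above it. That ratio leaves out the spread between the control libraries, and the gene was not tested. Atg9b overlaps Nos3, and the strandedness of the libraries is not given, so reads of the overlap cannot be assigned. Nos3 rose after D-gal/LPS (log2 fold change 1.57, edgeR adjusted p = 1.78e-05), with 35, 32 and 47 counts in controls and 104, 100 and 117 after D-gal/LPS.

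Among the 7 conjugation genes, 5 fell after D-gal/LPS and 2 of those 5 were higher again with WZB. Over all genes 29.3% fell after D-gal/LPS and 13.8% rose with WZB. With total-count scaling 0 of the 7 rose and 1 fell with WZB. Atg3 encodes the E2-like enzyme that attaches ATG8 proteins to lipid, and Atg5 the partner of ATG12 in the complex that directs this step. Atg3 read 75.2, 70.2 and 76.8 CPM in the 3 controls, 61.5, 66.4 and 61.96 in the D-gal/LPS libraries, and 77.6, 84.1 and 83.6 in those with WZB. Atg5 read 41.3, 37.3 and 35.6 CPM in the 3 controls, 23.4, 27.9 and 21.9 in the D-gal/LPS libraries, and 30.2, 38.96 and 30.2 in those with WZB. In both genes the D-gal/LPS libraries were below all others; with WZB, the libraries of Atg3 were above every control and those of Atg5 overlapped them. Atg3 fell after D-gal/LPS (log2 fold change -0.23 ± 0.081, edgeR adjusted p = 0.027) and rose with WZB (log2 fold change 0.37 ± 0.081, edgeR adjusted p = 0.00423). Atg5 likewise fell (log2 fold change -0.64 ± 0.13, edgeR adjusted p = 0.000833) and rose (log2 fold change 0.44 ± 0.13, edgeR adjusted p = 0.0223). Against control, the values with WZB were 0.14 ± 0.081 with edgeR adjusted p = 0.144 for Atg3 and -0.20 ± 0.13 with edgeR adjusted p = 0.195 for Atg5, neither of which passed. The WZB calls of both genes were lost with total-count scaling and the FPKM settings, that of Atg5 also with the filter of 5 CPM. The fall of Atg3 was lost with DESeq2 and with no filter, and without D-gal/LPS replicate 1 or 3 or control replicate 1 or 3 (edgeR adjusted p = 0.0613 to 0.091), and the rise of Atg5 without D-gal/LPS replicate 1 or 3 or WZB + D-gal/LPS replicate 2 (edgeR adjusted p = 0.0785 to 0.109).

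Atg16l2 (chr7:101289392-101302251), a relative of the scaffold gene Atg16l1, fell furthest in this group. It read 15.4, 20.6 and 17.9 CPM in the 3 controls, 6.01, 7.45 and 5.84 in the D-gal/LPS libraries, and 8.63, 6.93 and 8.601 in those with WZB, with every injured library below every control. Its log2 fold change was -1.49 ± 0.17 with edgeR adjusted p = 4.48e-06 after D-gal/LPS and 0.33 ± 0.17 with edgeR adjusted p = 0.171 with WZB. Atg16l1 itself fell (log2 fold change -0.63 ± 0.13, edgeR adjusted p = 0.000946). Atg12, the ubiquitin-like protein joined to ATG5, fell at the edge of the threshold (log2 fold change -0.28 ± 0.11, edgeR adjusted p = 0.0497), and DESeq2, its size factors, both other filters, the fit of only the groups compared, or leaving out any 1 of the 9 libraries, ended that call (edgeR adjusted p = 0.0518 to 0.201). Atg7, the E1-like enzyme that serves both conjugation reactions, was 0.058 ± 0.14 with edgeR adjusted p = 0.739 after D-gal/LPS and 0.23 ± 0.14 with edgeR adjusted p = 0.241 with WZB. Atg10, the E2-like enzyme for ATG12, was 0.21 ± 0.27 with edgeR adjusted p = 0.531 and 0.62 ± 0.26 with edgeR adjusted p = 0.0957. Neither passed in either comparison.

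Promoters were searched for all autophagy genes where found, and are given here because the E-box matches turned out to lie in conjugation genes. The E-box core is bound by TFEB and TFE3, the transcription factors of lysosome and autophagy genes. The conjugation genes Atg12 and Atg16l1 had no promoter to search, and a concentration of matches in this group was not tested. RefSeq promoters (GRCm38.p6) covering 250 bases before each start were found for 32 of the 39 genes, in 38 windows. The palindrome CACGTG, the core of the CLEAR element, was in 1 window each of Atg3, Atg5 and Atg7, 3 of 38 windows or 7.89%, beside 6.02% of all 32851 promoter windows. The forkhead motif GTAAACA, searched on both strands, was in none of the 38 windows, beside 3.17% of all promoter windows. The antioxidant response element, TGAC and GCA with any 3 bases between them, searched on both strands, was in a window of Ulk2, 1 of 38 or 2.63%, beside 2.47%. None of these motifs overlapped another in the windows shown. The windows that hold a match follow, 5′ to 3′ on the strand of the gene, with the matched motif in capitals. Atg3 is shown from 122 to 45 bases before its start (chr16:45158707-45158784, plus strand), with matches beginning 94 and 71 bases before it. Atg5 is shown whole (chr10:44268089-44268338, plus strand), with the match 14 bases before the start, and so is Atg7 (chr6:114670846-114671095, plus strand), with the match 132 bases before the start that RefSeq gives. The Atg7 window lies inside the gene as deposited (chr6:114643097-114860614), downstream of its first base, so it belongs to an internal start and not to the start of the deposited gene. Ulk2 (chr11:61855093-61855342, minus strand) has its match 17 bases before the start. A match is a description of letters and not a bound site.
Atg3: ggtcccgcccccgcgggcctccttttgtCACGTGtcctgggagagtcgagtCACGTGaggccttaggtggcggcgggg
Atg5: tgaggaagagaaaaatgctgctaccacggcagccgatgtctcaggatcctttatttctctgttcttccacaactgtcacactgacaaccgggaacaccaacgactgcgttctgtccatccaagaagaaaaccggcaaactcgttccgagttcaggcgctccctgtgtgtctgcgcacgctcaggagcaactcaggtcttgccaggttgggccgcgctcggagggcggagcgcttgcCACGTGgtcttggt
Atg7: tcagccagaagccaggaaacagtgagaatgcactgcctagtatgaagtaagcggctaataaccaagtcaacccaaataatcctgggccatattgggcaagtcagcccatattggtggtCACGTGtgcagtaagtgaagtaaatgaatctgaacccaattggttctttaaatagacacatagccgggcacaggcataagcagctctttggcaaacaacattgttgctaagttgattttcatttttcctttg
Ulk2: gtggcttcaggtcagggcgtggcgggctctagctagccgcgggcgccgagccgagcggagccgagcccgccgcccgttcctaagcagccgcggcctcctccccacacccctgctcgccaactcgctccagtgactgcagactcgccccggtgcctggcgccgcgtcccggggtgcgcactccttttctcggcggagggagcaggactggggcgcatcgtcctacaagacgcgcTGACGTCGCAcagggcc

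The 4 genes with a match hold different motifs, the E-box core in Atg3, Atg5 and Atg7 and the antioxidant response element in Ulk2. Atg3 and Atg5 fell after D-gal/LPS and rose with WZB, Ulk2 rose in both comparisons, and Atg7, with its match at an internal start, passed in neither. A link between motif and response was not tested.

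The ATG4 proteases trim new ATG8 proteins and release them from lipid. After D-gal/LPS, 2 of the 4 tested genes fell and none rose, beside 29.3% and 29.1% of all genes. Atg4d fell (log2 fold change -0.85 ± 0.12, edgeR adjusted p = 3.81e-05) and was lower again with WZB (log2 fold change -0.37 ± 0.12, edgeR adjusted p = 0.0362), though the second call was lost with upper quartile factors, voom, no filter or only the groups compared, and without D-gal/LPS replicate 1 or WZB + D-gal/LPS replicate 1, 2 or 3 (edgeR adjusted p = 0.0561 to 0.103). Atg4c fell (log2 fold change -0.55 ± 0.16, edgeR adjusted p = 0.00863) and did not pass with WZB (log2 fold change 0.31 ± 0.16, edgeR adjusted p = 0.174). Atg4a did not pass after D-gal/LPS (log2 fold change 0.30 ± 0.15, edgeR adjusted p = 0.114) and rose with WZB (log2 fold change 0.47 ± 0.15, edgeR adjusted p = 0.0341), a call lost with total-count scaling, the FPKM settings, DESeq2, its size factors and the filter of 5 CPM, and also without D-gal/LPS replicate 2 or 3 or WZB + D-gal/LPS replicate 2 (edgeR adjusted p = 0.134 to 0.147). The ranges of Atg4a did not overlap in either comparison, as was so for 65.5% of all genes after D-gal/LPS and 45.3% with WZB. Of the summed FPKM of the 4 genes, Atg4d made 62.5% ± 2.84 in control, 48.6% ± 1.67 after D-gal/LPS and 37.5% ± 2.96 with WZB (SD, n = 3), while Atg4a made 17.7% ± 1.45, 30.3% ± 1.66 and 41.8% ± 4.37. These shares do not depend on library scaling; Atg4a-ps is a near copy of Atg4a, and reads may be split between the pair. Atg4d overlaps Kri1 and Atg4b overlaps Thap4, so some of their reads may come from those genes. Kri1 did not pass after D-gal/LPS (log2 fold change -0.17, edgeR adjusted p = 0.583) or with WZB (-0.26, edgeR adjusted p = 0.488). Thap4 fell after D-gal/LPS (log2 fold change -0.84, edgeR adjusted p = 0.021) and did not pass with WZB (-0.17, edgeR adjusted p = 0.71). Atg4b, at -0.22 ± 0.24 with edgeR adjusted p = 0.452, and Atg4a-ps, at 0.66 ± 0.31 with edgeR adjusted p = 0.0812, did not pass after D-gal/LPS.

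In the ATG8 family 3 of 5 genes rose after D-gal/LPS and 3 rose with WZB, and none was called lower in either comparison. Over all genes 29.1% rose after D-gal/LPS and 13.8% with WZB. With total-count scaling 1 of the 5 rose with WZB. The proteins of this family are joined to lipid on the autophagosome and hold the cargo receptors there. Gabarapl1 (chr6:129533160-129542346) read 192, 155 and 161 CPM in the 3 controls, 268, 248 and 258 in the D-gal/LPS libraries, and 416, 419 and 425 in those with WZB. The 3 groups stood apart, and the libraries with WZB were higher than every other. Its log2 fold changes were 0.61 ± 0.086 with edgeR adjusted p = 4.33e-05 after D-gal/LPS, 0.70 ± 0.086 with edgeR adjusted p = 7.54e-05 with WZB, and 1.31 ± 0.087 with edgeR adjusted p = 4.33e-08 for WZB + D-gal/LPS against control. Gabarapl2 read 33.1, 32.2 and 32.3 CPM in the 3 controls, 50.6, 52.98 and 51.4 in the D-gal/LPS libraries, and 61.6, 68.5 and 63.8 in those with WZB, in the same order and again with no overlap. It rose after D-gal/LPS (log2 fold change 0.67 ± 0.085, edgeR adjusted p = 1.6e-05) and again with WZB (log2 fold change 0.32 ± 0.084, edgeR adjusted p = 0.0113). The WZB call of Gabarapl2 was lost with total-count scaling and the FPKM settings, and without D-gal/LPS replicate 2 (edgeR adjusted p = 0.084).

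Gabarap read 195, 203 and 196 CPM in the 3 controls, 243, 253 and 251 in the D-gal/LPS libraries, and 253, 304 and 288 in those with WZB. The D-gal/LPS libraries were above the controls, and those with WZB began just above them. It rose after D-gal/LPS (log2 fold change 0.33 ± 0.079, edgeR adjusted p = 0.00286). The WZB difference did not pass (log2 fold change 0.18 ± 0.079, edgeR adjusted p = 0.108); it turned slightly negative with total-count scaling and the FPKM settings, and passed with upper quartile factors and without WZB + D-gal/LPS replicate 1 (edgeR adjusted p = 0.0303). Map1lc3a, which encodes LC3A, read 16.7, 17.6 and 18.1 CPM in the 3 controls, 17.3, 20.3 and 15.3 in the D-gal/LPS libraries, and 22.6, 26.4 and 21.6 in those with WZB. Control and D-gal/LPS overlapped, and the libraries with WZB were higher than both. Its log2 fold change was 0.012 ± 0.13 with edgeR adjusted p = 0.942 after D-gal/LPS and 0.42 ± 0.13 with edgeR adjusted p = 0.0277 with WZB. The WZB call was lost with total-count scaling, the FPKM settings, DESeq2, its size factors and the filter of 5 CPM, and without D-gal/LPS replicate 1 or 3 or WZB + D-gal/LPS replicate 2 (edgeR adjusted p = 0.0882 to 0.132).

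Map1lc3b (chr8:121590361-121598760), which encodes LC3B, the protein most used to count autophagosomes, varied widely within groups. It read 99.9, 28.7 and 104 CPM in the 3 controls, 30.2, 28.7 and 28.4 in the D-gal/LPS libraries, and 105, 36.8 and 35.9 in those with WZB. Control replicates 1 and 3 and WZB + D-gal/LPS replicate 1 stood far above the other 6 libraries, which lay close together. In raw counts these were 1625, 475 and 2001 for the controls, 523, 436 and 481 for D-gal/LPS, and 1485, 489 and 584 with WZB. The log2 fold change after D-gal/LPS was -1.42 ± 0.63 with edgeR adjusted p = 0.0995 and did not pass, nor did the WZB value of 1.02 ± 0.63 with edgeR adjusted p = 0.288. Without control replicate 2 the fall after D-gal/LPS was -1.82 with edgeR adjusted p = 0.0289 and passed, and DESeq2 also called it, at adjusted p = 0.0410. The gene overlaps Zcchc14, which had 599, 492 and 661 counts in controls, 304, 196 and 261 in the D-gal/LPS group, and 203, 202 and 259 with WZB, and did not follow this pattern.

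Within the family, the share of Gabarapl1 was larger in each injured group than in control. On the FPKM scale the 5 genes summed to 148 in control, 189 after D-gal/LPS and 228 with WZB. These sums do not use the TMM factors, so their differences between groups depend on the scaling, unlike shares of the sum. Gabarapl1 made 38.4% ± 2.45, 44.2% ± 1.51 and 52.02% ± 1.34 of that sum, and Gabarap 43.3% ± 3.44, 40.9% ± 1.01 and 33.4% ± 2.27. The shares of Gabarapl1 in the 3 groups did not overlap. In control the ranges of both genes overlapped, and in each injured group the share of Gabarapl1 was above that of Gabarap in all libraries. With 3 libraries against 3, an exact permutation test cannot give a two-sided p under 0.10, and none was run on these shares.

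**Figure D2:**
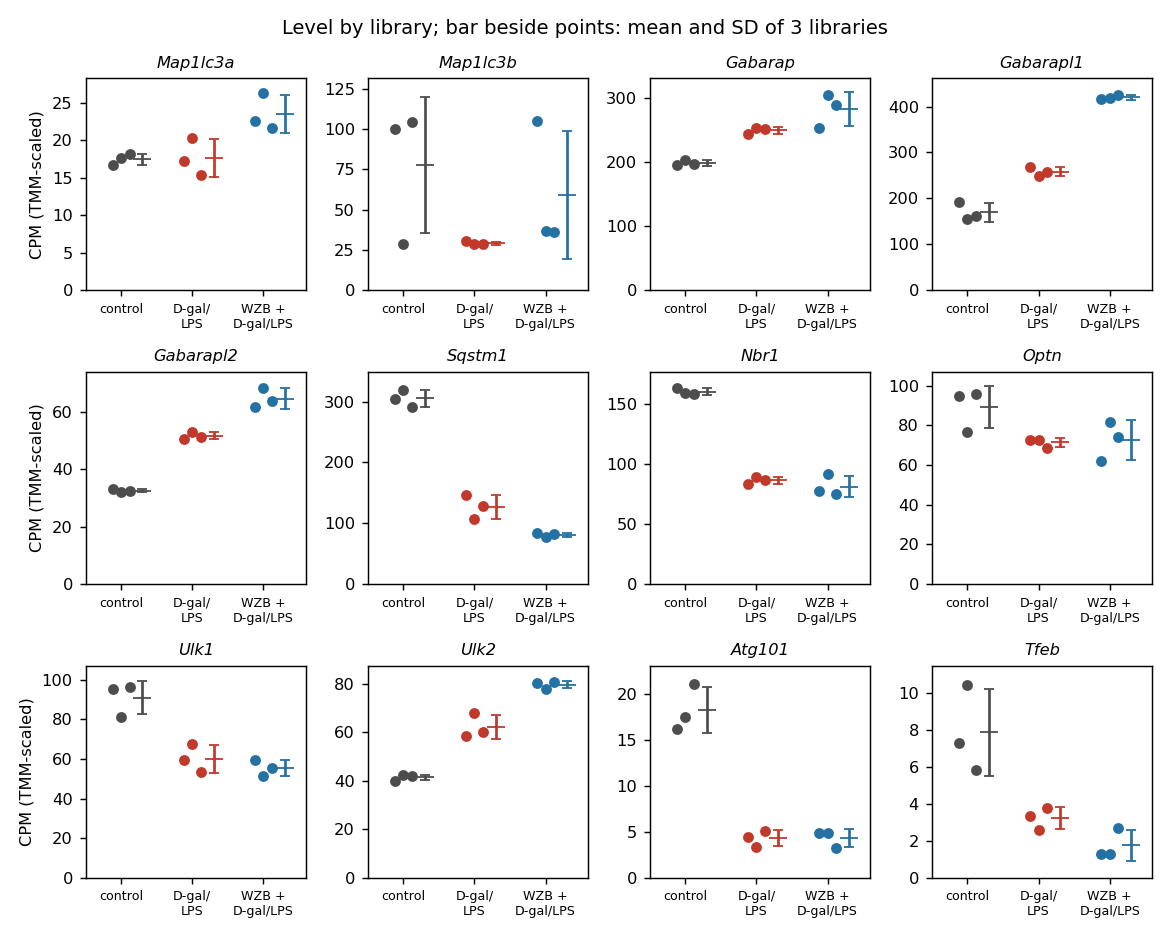
Points are CPM (TMM-scaled) in each of 3 libraries per group for the 5 ATG8 genes, the 3 cargo receptors, both ULK kinases, Atg101 and Tfeb; the bar beside them is the mean and SD, and every axis starts at 0. Gabarapl1 steps up from 169 to 258 to 420.1 CPM on average while Sqstm1 steps down from 305 to 127 to 80.8, and Map1lc3b has 2 high control libraries and 1 high library with WZB.

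The 3 cargo receptors all fell after D-gal/LPS, where 29.3% of all genes fell, and Sqstm1 fell further with WZB. Sqstm1 (chr11:50199366-50210827), the gene of p62, read 305, 319.7 and 291 CPM in the 3 controls, 146, 106 and 129 in the D-gal/LPS libraries, and 83.6, 77.3 and 81.4 in those with WZB. The 3 groups stood apart in falling order, 305 ± 14.3, 127 ± 19.8 and 80.8 ± 3.18 CPM (SD, n = 3). Its log2 fold changes were -1.26 ± 0.10 with edgeR adjusted p = 1.88e-07 after D-gal/LPS, -0.65 ± 0.10 with edgeR adjusted p = 0.000417 with WZB, and -1.92 ± 0.10 with edgeR adjusted p = 6.03e-09 for WZB + D-gal/LPS against control. Nbr1, a receptor related to p62, read 164, 159 and 159 CPM in the 3 controls, 83.7, 89.6 and 86.7 in the D-gal/LPS libraries, and 77.5, 91.5 and 75.3 in those with WZB. It was lower in all 6 injured libraries than in any control, and the 2 injured groups overlapped. It fell after D-gal/LPS (log2 fold change -0.89 ± 0.086, edgeR adjusted p = 1.08e-06) and did not pass with WZB (log2 fold change -0.090 ± 0.086, edgeR adjusted p = 0.471), although it was called lower with total-count scaling and both FPKM settings.

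Optn, the gene of optineurin, a receptor for damaged mitochondria and bacteria, read 94.6, 76.9 and 96.01 CPM in the 3 controls, 72.6, 72.8 and 68.8 in the D-gal/LPS libraries, and 61.99, 81.9 and 74.2 in those with WZB. The D-gal/LPS libraries lay just below the lowest control. It fell after D-gal/LPS (log2 fold change -0.32 ± 0.11, edgeR adjusted p = 0.025), a call lost with DESeq2 and without D-gal/LPS replicate 2 or 3 or control replicate 1 or 3 (edgeR adjusted p = 0.0623 to 0.0932). The WZB value was 0.026 ± 0.11 with edgeR adjusted p = 0.894. Of the summed FPKM of the 3 receptors, which was 79.6 in control, 40.1 after D-gal/LPS and 28.7 with WZB, Sqstm1 made 58.7% ± 2.65, 46.5% ± 4.36 and 36.2% ± 3.62, and Optn 21.5% ± 2.56, 33% ± 2.43 and 40.5% ± 3.27. The sum, unlike the shares, depends on the scaling of the libraries.

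The transcription factor genes differed from each other. Tfeb (chr17:47737030-47792419), a master regulator of lysosome and autophagy genes, read 7.32, 10.4 and 5.84 CPM in the 3 controls, 3.35, 2.57 and 3.78 in the D-gal/LPS libraries, and 1.27, 1.28 and 2.703 in those with WZB. It was low in every library; the controls were above all others, and 1 library with WZB overlapped the D-gal/LPS group. It fell after D-gal/LPS (log2 fold change -1.27 ± 0.30, edgeR adjusted p = 0.00234). The WZB difference did not pass (log2 fold change -0.86 ± 0.33, edgeR adjusted p = 0.0696) and passed without D-gal/LPS replicate 2 or WZB + D-gal/LPS replicate 3 (edgeR adjusted p = 0.015 to 0.0425), as it did with total-count scaling, DESeq2 and the filter of 5 CPM. Tfe3, which encodes a related factor, read 31.4, 25.8 and 29.03 CPM in the 3 controls, 28.3, 24.2 and 33.5 in the D-gal/LPS libraries, and 26.4, 25.2 and 20.6 in those with WZB, with all groups overlapping. Its log2 fold change was -0.0017 ± 0.14 with edgeR adjusted p = 0.993 after D-gal/LPS and -0.25 ± 0.14 with edgeR adjusted p = 0.204 with WZB, which passed without D-gal/LPS replicate 2 (edgeR adjusted p = 0.0339) and with total-count scaling. The standard error is wider for Tfeb, the less abundant of the pair.

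**Figure D3:**
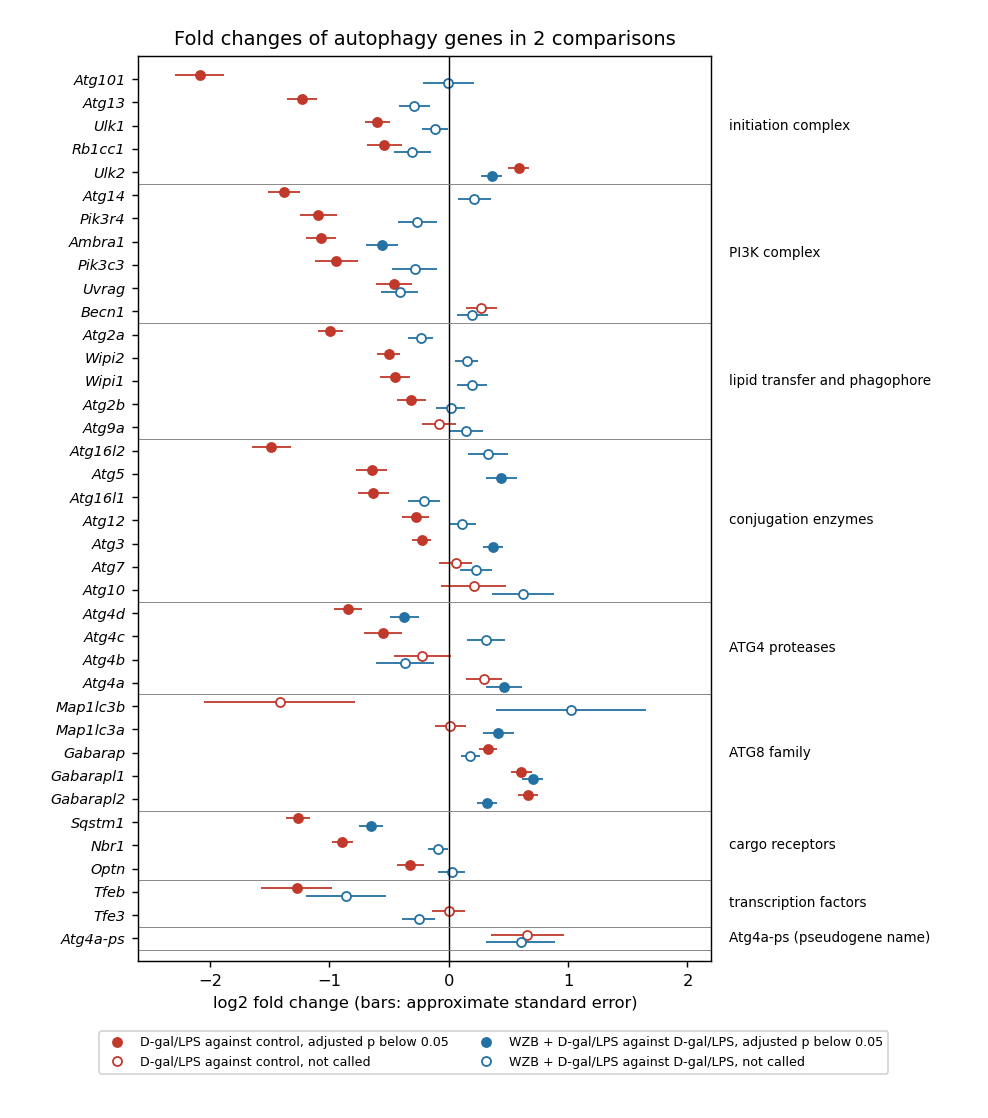
Points are log2 fold changes of the 38 tested autophagy genes with bars of 1 approximate standard error, red for D-gal/LPS against control and blue for WZB + D-gal/LPS set against D-gal/LPS alone, filled where the edgeR adjusted p is under 0.05. Red filled points lie left of 0 for 24 genes and right of it for 4; blue filled points lie right of 0 for 7 and left for 3, under TMM scaling.

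Genes around the core machinery were described by 6 lists of the wider pathway, for which the adjusted p is again over all genes, of which 29.1% rose and 29.3% fell after D-gal/LPS. After D-gal/LPS, of 25 tested genes of mTORC1, AMPK and nutrient sensing 4 rose and 10 fell, with a median log2 fold change of -0.25. By the same edgeR test, Foxo1, a forkhead factor of starvation, fell (-1.40 ± 0.14, edgeR adjusted p = 2.04e-06), as did Mtor, the kinase that restrains ULK1 (-0.86 ± 0.10, edgeR adjusted p = 9.79e-06), and Sesn1, which limits that kinase when amino acids are short (-1.73 ± 0.23, edgeR adjusted p = 2.29e-05). Of 25 tested genes of membrane supply and fusion 2 rose and 10 fell, with a median of -0.16. Nrbf2, a partner of the PIK3C3 complex (-2.15 ± 0.20, edgeR adjusted p = 7.27e-07), and Tmem41b, a lipid scramblase (-1.98 ± 0.22, edgeR adjusted p = 5.25e-06), led the falls, and Trp53inp2 also fell (-0.90 ± 0.10, edgeR adjusted p = 7.22e-06). Of 21 receptor genes for mitochondria, endoplasmic reticulum and other cargo 2 rose and 6 fell, with a median of -0.065. Bnip3, a mitochondrial receptor (-1.21 ± 0.084, edgeR adjusted p = 3.98e-08), Stbd1, a receptor for glycogen (-1.20 ± 0.10, edgeR adjusted p = 3.36e-07), and Calcoco1 (-0.69 ± 0.094, edgeR adjusted p = 3.24e-05) fell.

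Most lysosomal enzyme and membrane genes rose after D-gal/LPS. Of 24 lysosomal hydrolase and membrane genes 15 rose and 1 fell, with a median log2 fold change of 0.44 beside -0.029 over all genes. Npc2, which moves cholesterol out of lysosomes (1.28 ± 0.084, edgeR adjusted p = 2.37e-08), Psap, the precursor of the saposins (0.94 ± 0.073, edgeR adjusted p = 1.28e-07), and the protease gene Ctsb (0.82 ± 0.069, edgeR adjusted p = 2.77e-07) rose, in log2 fold change. Of 17 genes of the proton pump that acidifies the lysosome 6 rose and 1 fell, with a median of 0.32; Atp6v1b2 (0.95 ± 0.11, edgeR adjusted p = 4.8e-06), Atp6v1a (0.78 ± 0.10, edgeR adjusted p = 2.49e-05) and Atp6v0e (0.71 ± 0.10, edgeR adjusted p = 3.88e-05) rose. Macrophages and Kupffer cells also express these genes strongly, and the monocyte and macrophage marker sum rose in the same libraries from 52.3 to 60.8 CPM to 447 to 457 CPM; the part of that shift was not tested. Of 9 tested genes of the list of p62 partners and antioxidant genes 3 rose and 6 fell, with a median of -0.64. Keap1, which p62 binds (-1.34 ± 0.11, edgeR adjusted p = 2.67e-07), fell, while Hmox1, which degrades haem (2.196 ± 0.089, edgeR adjusted p = 1.94e-10), and Slc7a11, the cystine transporter (6.64 ± 0.41, edgeR adjusted p = 1.21e-08), rose. Slc7a11 had 0, 2 and 2 counts in controls and 162, 133 and 121 after D-gal/LPS, so its fold is poorly determined.

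With WZB the counts were smaller and depended on scaling: with total-count scaling 0 rose and 5 fell in nutrient sensing, 1 and 8 in membrane supply and fusion, and 3 and 3 among the receptors. With TMM, in nutrient sensing 0 of 25 rose and 1 fell, the AMPK subunit gene Prkaa1 (log2 fold change -0.55 ± 0.16, edgeR adjusted p = 0.0205); Sesn2 (-0.47 ± 0.23, edgeR adjusted p = 0.144) and Rptor (-0.27 ± 0.13, edgeR adjusted p = 0.147) came next and did not pass. In membrane supply and fusion 3 rose and 5 fell, Trp53inp2 upwards (0.66 ± 0.10, edgeR adjusted p = 0.000459), and Plekhm1 (-0.66 ± 0.12, edgeR adjusted p = 0.00131) and Rab7 (-0.62 ± 0.13, edgeR adjusted p = 0.00331), both of lysosome fusion, downwards. Among the receptors 5 rose and 2 fell: Bnip3 was higher (0.85 ± 0.084, edgeR adjusted p = 1.76e-05), and Tax1bp1 (-0.74 ± 0.077, edgeR adjusted p = 2.51e-05) and the kinase gene Tbk1 (-0.66 ± 0.10, edgeR adjusted p = 0.000421) were lower.

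Of the lysosomal hydrolase and membrane genes 10 rose and 0 fell with WZB, among them Ctsl (log2 fold change 0.60 ± 0.077, edgeR adjusted p = 0.000105), Lipa (0.63 ± 0.10, edgeR adjusted p = 0.000475) and Lamp2 (0.50 ± 0.081, edgeR adjusted p = 0.00056), while the monocyte and macrophage marker sum was lower, at 263 to 308 CPM. With total-count scaling 5 rose and 2 fell, and the median went from 0.19 to -0.0040. In the proton pump Atp6v1b2 fell (-0.66 ± 0.11, edgeR adjusted p = 0.000494) and 2 genes rose, Atp6v0d1 (0.38 ± 0.095, edgeR adjusted p = 0.00982) and Atp6v1e1 (0.23 ± 0.076, edgeR adjusted p = 0.0368), neither of which was called with total-count scaling, where 0 rose and 2 fell. In the list of p62 partners and antioxidant genes 2 rose and 4 fell. The antioxidant enzyme genes Nqo1 (1.37 ± 0.25, edgeR adjusted p = 0.00141) and Gclm (0.63 ± 0.14, edgeR adjusted p = 0.00519) were higher, and Hmox1 was lower (-1.044 ± 0.086, edgeR adjusted p = 5.02e-06). The medians of the 6 lists lay between -0.017 and 0.22 with TMM, beside -0.022 over all genes and with 13.8% of all genes higher and 14.7% lower; with total-count scaling they lay between -0.22 and 0.031.

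**Figure D4:**
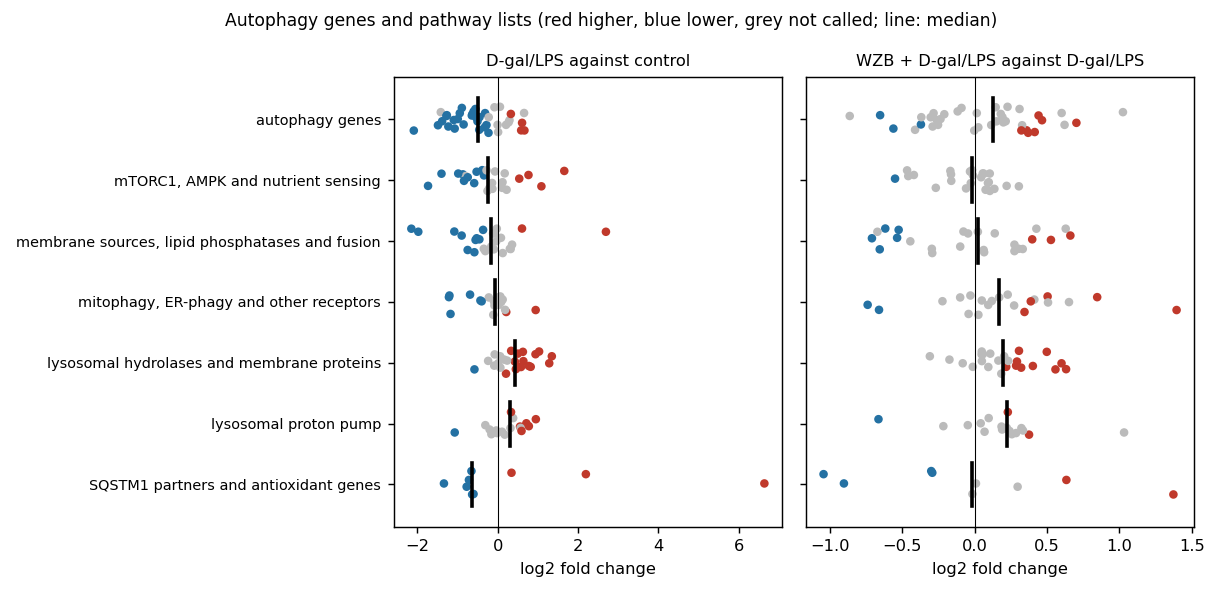
Each point is the log2 fold change of 1 tested gene, in the autophagy group and in 6 pathway lists, for D-gal/LPS against control (left) and WZB + D-gal/LPS set against D-gal/LPS alone (right, on a narrower axis); red and blue points passed the edgeR test and the black line is the median. On the left the autophagy median is -0.48 and that of the lysosomal hydrolase and membrane genes 0.44; on the right the medians are 0.13 and 0.19, and the second goes to -0.0040 with total-count scaling.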

How the data were processed

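Messenger RNA of mouse liver was sequenced in 9 libraries, 3 in each of 3 groups, assigned by the sample labels. The authors deposited 1 table with a whole-number read count and a length-scaled value, FPKM, for each gene and library. The table has 21 value columns; 3 of them match no sample in the labels and were left out. The submitters' processing notes name GRCm38.p4 (mm10) as the build, and limma and R 4.1.2 as tools, with aligner, counter, annotation and strandedness not given in the sources used here. Positions are those of the deposited table.

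The deposited counts, 15072509 to 18106895 per library, were tested with edgeR 4.0.16 in R 4.3.3: filterByExpr left 13583 of 34745 genes with 99.93% of the counts, libraries were scaled by TMM, and all 9 libraries entered 1 robust quasi-likelihood fit of 3 groups without a block (6 residual degrees of freedom). Benjamini-Hochberg adjustment ran over all 13583 genes, with a threshold of 0.05. The standard error of a log2 fold change is approximate, its size over the square root of F. Deposited FPKM values were used for levels between genes and, with pseudocounts of 1 and 0.1, for alternatives in limma 3.58.1; DESeq2 1.42.0 was another. Symbols, biotypes and overlaps come from the deposited table and GENCODE M21, in which all 39 identifiers were found, 31 with the same start and end; promoters come from RefSeq GRCm38.p6. Reads of overlapping genes cannot be told apart without strand.

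The members, roles, pathway lists and cell type markers were chosen with earlier results of these data known. Values by library are given for members called with an absolute log2 fold change of at least 1 in either of the first 2 comparisons, and for every ATG8 gene, cargo receptor, ULK kinase and both transcription factors; Atg3 and Atg5 were added after their values were seen. Each pathway list is shown by the 3 genes with the smallest adjusted p in each of the first 2 comparisons. Replicate numbers showed no visible pairing of the libraries. Same-numbered libraries correlated at -0.067 to 0.042 in their deviations from the group means, and differently numbered ones at -0.04 to 0.082. With 3 libraries a group this cannot show whether the libraries were paired.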

Additional observations from a re-analysis of the deposited data

How the results depend on the processing

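Results were recomputed in 20 alternative settings, 9 of which left out 1 library; Atg4a-ps and Atg10 had no value with the filter of 5 CPM, which removed them, and so were tried in 19 against control. Of the calls, 23 of 28 held in every setting tried for D-gal/LPS against control, 3 of 10 for WZB + D-gal/LPS set against D-gal/LPS alone, and 23 of 28 for WZB + D-gal/LPS against control. The number of autophagy genes called was 26 with the replicate block in place of 28 for D-gal/LPS, 10 in place of 10 for WZB, and 26 in place of 28 against control. The numbers are not known to pair the libraries, and no call lost under the block is read as a weaker effect. In the WZB comparison, genes higher over the whole table went from 1873 to 899 with limma on log2(FPKM + 0.1), 913 on log2(FPKM + 1) and 850 with total-count scaling, and genes lower from 2001 to 3222, 3384 and 3290. Autophagy genes higher went from 7 to 4 with a filter of 5 CPM in 3 libraries and to 1 with both FPKM settings and with total-count scaling. Autophagy genes lower went from 3 to 5 with DESeq2, 7 with the filter of 5 CPM, 7 and 7 with the FPKM settings, and 12 with total-count scaling. Total-count scaling by itself moves the median of all genes by -0.20 on the log2 scale; the cause of the other shifts was not tested. Leaving out 1 library gave 6 to 11 autophagy genes called with WZB, 4 to 8 higher and 2 to 6 lower, and 1232 to 1947 genes higher over the whole table, 1232 being without D-gal/LPS replicate 2. The median of all genes moved by -0.099 without that library.

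Among the members called or described by library, only log2 fold changes that were not called changed sign, and the cause was not tested. For D-gal/LPS against control, Map1lc3a, at 0.012, was -0.051 and -0.045 with the FPKM settings, -0.047 with total-count scaling, -0.042 with upper quartile factors and -0.059 with voom, and -0.079 to 0.105 with 1 library left out. Tfe3, at -0.0017, was 0.030 with DESeq2, 0.029 with its size factors, 0.036 with the filter of 5 CPM, 0.003 with no filter, 0.025 with only the groups compared and 0.044 with voom, and -0.128 to 0.126 with 1 library left out. With WZB, Gabarap was -0.022, -0.021 and -0.020 with the FPKM settings and total-count scaling. Optn was -0.032 and -0.032 with DESeq2 and its size factors, -0.071 with the filter of 5 CPM, -0.180, -0.167 and -0.176 with the FPKM settings and total-count scaling, and -0.068 to 0.131 with 1 library left out. Atg101 was 0.001 with only the groups compared, 0.008 with the replicate block and 0.074 with upper quartile factors, and -0.239 to 0.182 with 1 library left out.

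With 3 libraries a group and the depth given above, genes of few counts such as Tfeb and Atg4a-ps have wide errors, and Atg9b could not be tested. FPKM levels depend on gene lengths that the authors set.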
